A study of Mus musculus with 6 samples.

Results

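The replication-dependent histone genes encode the core histones H2A, H2B, H3 and H4 and the linker histone H1, and lie in 4 groups in the mouse genome. They were taken as the rows of the expression table whose symbol begins with Hist1h, Hist2h, Hist3h or Hist4h, which gave 68 of 23361 genes. By class there were 6 H1, 18 H2A, 19 H2B, 12 H3 and 13 H4 genes, and by location 54 in the Hist1 cluster on chromosome 13, 10 in Hist2 on chromosome 3, 3 in Hist3 on chromosome 11 and 1, Hist4h4, on chromosome 6. All were measured by RNA sequencing in whole hippocampus of Tet1Δe4-/- mice, which carry a homozygous deletion of exon 4 of the 5-methylcytosine dioxygenase gene Tet1, and of Tet1+/+ mice. Each genotype had 3 libraries, called here Tet1-deficient and wild-type. All mice had been given electroconvulsive shock by ear clamps (18 mA, 100 Hz, 0.2 ms pulses, 1.15 s), and hippocampi were frozen 1.5 to 2 hours later. The labels used here do not state the age of the mice. Unshocked mice form no group here. The labels do not say whether the RNA was selected for poly(A) tails. Replicate numbers are names only.

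Most of these genes work as a unit in dividing cells. They are transcribed when DNA is copied, lack introns, and end in a conserved stem-loop that takes the place of a poly(A) tail and is bound by the stem-loop binding protein. Cells that have stopped dividing, such as neurons, draw chiefly on replacement histones from genes elsewhere in the genome, which make ordinary polyadenylated mRNA. Some cluster genes can also make longer, polyadenylated transcripts that run past the stem-loop, or splice around it. A library made from polyadenylated RNA registers these longer forms and largely misses the others.

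The stem-loop was searched for in GENCODE release M21 transcripts (GRCm38) after the stop codon. The search took a stem of 6 bases beginning with GG and ending with CC, around a loop of 4 bases beginning with TT. A match was found in 44 of the 67 protein-coding members, and the 68th, Hist3h2bb-ps, is a pseudogene. None could be found where the annotated transcript stops at or just after the stop codon, as for Hist1h4k and Hist2h2bb. A missing match thus need not be a missing stem-loop. The windows below are shown because the same element ends genes that were measured well and genes that were not. They are the RNA-sense strand written as DNA, and capitals mark the stem.
Hist3h2a (chr11:58955167-58955192, plus strand): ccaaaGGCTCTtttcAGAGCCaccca
Hist3h2ba (chr11:58949344-58949369, plus strand): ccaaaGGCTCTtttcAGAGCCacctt
Hist1h1c (chr13:23739507-23739532, plus strand): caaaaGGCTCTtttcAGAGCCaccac
Hist1h1e (chr13:23621777-23621802, minus strand): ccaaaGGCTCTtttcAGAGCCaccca
Hist1h1d (chr13:23555782-23555807, plus strand): caaacGGCTCTtttcAGAGCCaccca
Hist1h3b (chr13:23752815-23752840, plus strand): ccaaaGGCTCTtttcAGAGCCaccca
Hist2h2ac (chr3:96220413-96220438, minus strand): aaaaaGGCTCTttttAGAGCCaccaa
Hist1h4i (chr13:22040961-22040986, minus strand): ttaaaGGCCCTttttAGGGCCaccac
Hist2h4 (chr3:96262934-96262959, minus strand): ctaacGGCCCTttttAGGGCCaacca
Hist1h4b (chr13:23757361-23757386, plus strand): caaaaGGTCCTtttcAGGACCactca
The core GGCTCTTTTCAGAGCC was present in 26 genes, among them Hist3h2a, Hist3h2ba and Hist1h1c, the strongly measured ones above, and Hist1h3b, which was listed at 0 in all libraries. The core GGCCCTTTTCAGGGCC, with another stem, was present in 7 genes, 6 of the Hist1 cluster and Hist4h4, all of class H4.

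Most members were low. The values are FPKM (fragments per kilobase of transcript, relative to each library's mapped total). Of the 68, 12 were listed at 0 in every library (17.6%, against 18.1% of all genes), 31 were above 0 in some libraries, and 25 were above 0 in all. The level required for the test between genotypes, 1 FPKM on average over all 6 libraries, was reached by 14 members (20.6%), against 12533 of all 23361 genes (53.6%). The other 54 comprised the 12 at 0, 22 with a mean above 0 and under 0.1 FPKM, and 20 between 0.1 and 1 FPKM. The 14 carried 93.5% of the summed FPKM of the set. By class they were 2 of 6 H1, 2 of 18 H2A, 5 of 19 H2B, 1 of 12 H3 and 4 of 13 H4 genes, and by location 7 of 54 in Hist1, 5 of 10 in Hist2, 2 of 3 in Hist3 and 0 of 1 in Hist4. Just outside the limit lay Hist1h2be at a mean of 0.935 FPKM, and just inside it Hist1h2bg at 1.23 FPKM, both H2B genes. The whole set summed to 114, 111 and 117 FPKM in Tet1-deficient libraries and to 102, 96.6 and 110 FPKM in wild-type libraries, which is between 0.0248% and 0.0301% of a library's FPKM sum.

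**Figure D1:**
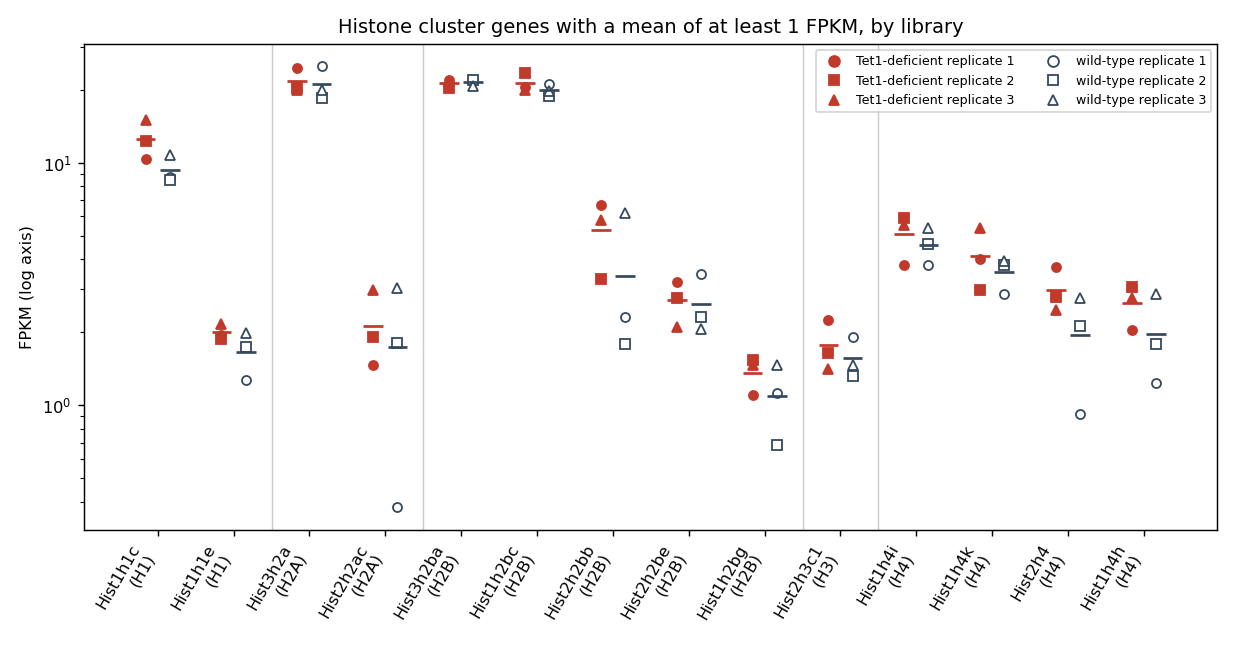
FPKM on a log axis of the 14 histone cluster genes that averaged 1 FPKM or more, ordered by class and level, with each library as a point and each genotype's mean as a line (n = 3). Hist3h2a, Hist3h2ba, Hist1h2bc and Hist1h1c stand above the other 10, and wild-type replicate 1 has the lowest Hist2h2ac and Hist2h4 values.

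The libraries themselves were alike, with Pearson correlations across tested genes between 0.965 and 0.990 and FPKM sums between 371014 and 390042. On the first principal component of the tested genes outside the clusters, which held 53.3% of the variance, replicate 1 of each genotype stood apart from the other 4 libraries, so differences are also given for those 4. The title codes of wild-type replicate 1 (f in place of m) and wild-type replicate 3 (b in place of a) differ from the others, and the labels leave these letters unexplained. Tet1 itself had 0.740, 0.685 and 0.638 FPKM in Tet1-deficient libraries and 0.977, 0.718 and 0.897 FPKM in wild-type libraries. The groups overlapped, and the two-sided p of an exact permutation test was 0.2, and 0.1 is the lowest it can reach; a level over the whole gene does not check the loss of exon 4. Slc17a7, the vesicular glutamate transporter of hippocampal neurons, lay between 573 and 655 FPKM. It is 1 of 6 hippocampal neuron markers, all tested. By log2 difference, Tet1-deficient minus wild-type, 3 were positive and 3 negative (median −0.03), with 0 past the adjusted limma threshold. Gad1 was lower without overlap, at 93.1, 107 and 97.4 FPKM in Tet1-deficient and 108, 108 and 107 FPKM in wild-type libraries. Such separation, either way, held for 4.13% of tested genes. Wfs1 differed by −0.17, and by −0.34 in the 4 libraries, where the median of the 6 markers was 0.04. Read depth is unknown, so no counting interval is given.

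Members are given here by their annotated ends. Among 22 stem-loop genes whose annotated transcript runs more than 100 bases past the stem-loop, 8 were tested (36.4%), 0 were listed at 0 throughout and the median level was 0.452 FPKM. Among the 22 whose transcript stops within 100 bases, 2 were tested (9.09%), 7 were listed at 0 throughout and the median was 0.0294 FPKM. The limit of 100 bases was chosen after the levels were seen, and the comparison is a description with no test. The share of a member's 50-base stretches that also occur in transcripts of other genes differed with level too. Its median was 85.7% (range 23.8 to 100%) for the 12 members listed at 0 throughout. For the 14 tested members it was 31.8% (range 0 to 100%). Annotated end and shared sequence were not separated, and the part of either in the levels was not tested. Hist3h2a, Hist3h2ba and Hist1h1c continue for 1643, 169 and 840 bases after the stem-loop. Other genes with a long annotated end were low. Hist1h1d continues for 4884 bases and averaged 0.115 FPKM, Hist1h2ac for 2010 bases at 0.348 FPKM, and Hist4h4 for 2445 bases at 0.431 FPKM. Hist1h4h and Hist2h2ac were tested with only 46 and 57 bases after the stem-loop. Of the coding genes without a match, 5 have more than 100 annotated bases after the stop codon: 2 were tested, Hist1h2bc and Hist2h2be, and 2 were listed at 0 throughout, Hist1h2bq with 1608 such bases and Hist1h2br with 1803. The other 18 have at most 100: 2 were tested, Hist1h4k and Hist2h2bb, whose annotation ends at the stop codon itself, and 3 were listed at 0 throughout. The annotation behind the authors' FPKM is not given in the sources used here, so these ends need not be those used for the values. Hist1h3d and Hist1h3e have annotated transcripts of 1249 and 836 bases. Their FPKM were equal in Tet1-deficient replicate 2 (0.38), wild-type replicate 2 (0.323) and wild-type replicate 3 (0.236). In the other libraries they differed. Whether the values rest on other transcript lengths was not tested.

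**Figure D2:**
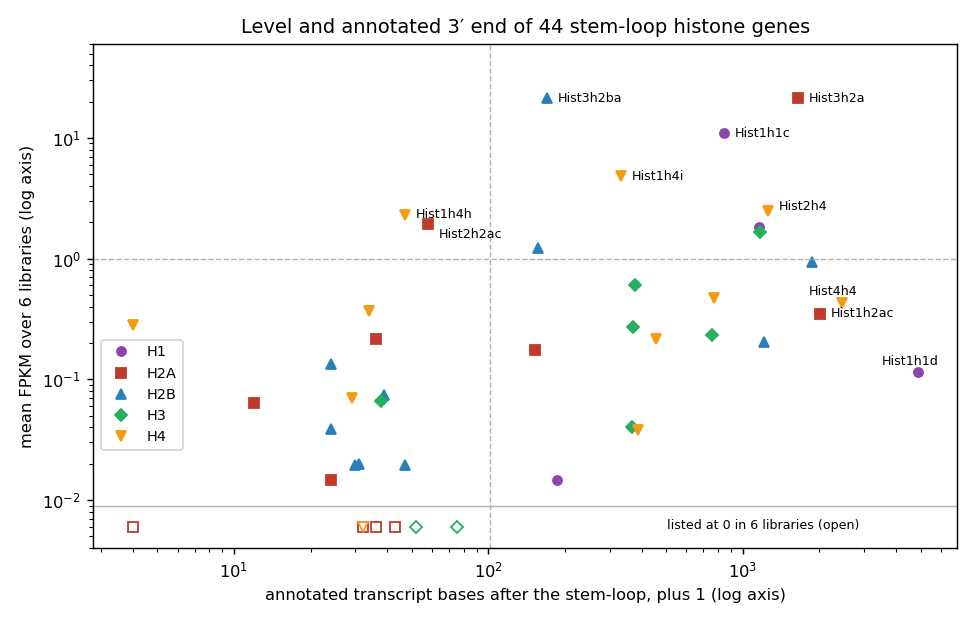
Mean FPKM over 6 libraries (log axis) of the 44 histone cluster genes with a stem-loop against the annotated transcript length after it (bases plus 1, log axis), by class; open symbols are the 7 genes listed at 0. The dashed lines mark 1 FPKM and 100 bases. Genes at 0 all lie left of the 100-base line, and 8 of the 10 genes at or above 1 FPKM lie right of it.

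The highest levels belonged to 4 genes, 2 of them in the small Hist3 cluster. Hist3h2a, an H2A gene at 58954685 to 58956830 on chromosome 11 (plus strand, GRCm38), had 24.6, 20.3 and 20.0 FPKM in Tet1-deficient libraries and 25, 18.5 and 20.0 FPKM in wild-type libraries. In both genotypes replicate 1 was highest, and the groups overlapped. The mean was 21.6 ± 2.57 FPKM in Tet1-deficient and 21.2 ± 3.41 FPKM in wild-type hippocampus (SD, n = 3 each). For Hist3h2a, 31.5% of 50-base stretches also occur in transcripts of other genes, and the annotation has Trim17 overlapping it on the same strand. The level of Hist3h2a is therefore uncertain.

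Hist3h2ba, an H2B gene about as abundant, had 22.0, 20.3 and 21.7 FPKM in Tet1-deficient libraries and 21.7, 22.0 and 20.6 FPKM in wild-type libraries. The groups overlapped, with means of 21.3 ± 0.921 and 21.5 ± 0.728 FPKM in Tet1-deficient and wild-type hippocampus (SD, n = 3 each). Its interval for the log2 difference, from −0.21 to 0.19, was the narrowest of the 14. Of the 50-base stretches of Hist3h2ba, 22.1% also occur in transcripts of other genes. Log2 differences throughout are Tet1-deficient minus wild-type on the log2(FPKM + 1) scale, which understates the change of genes near 1 FPKM, and intervals are at 95% from limma.

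Hist1h2bc, an H2B gene at 23684199 to 23692908 on chromosome 13 (plus strand), is 1 of 5 members, all H2B genes, whose annotated transcript has more than 1 exon. It has 2, and none of its 742 bases after the stop codon held the stem-loop searched for. It had 20.5, 23.4 and 20.0 FPKM in Tet1-deficient libraries, against 21, 18.8 and 19.7 FPKM in wild-type libraries. The groups overlapped (log2 difference 0.09, interval −0.14 to 0.33). Of its 50-base stretches 30.6% also occur in transcripts of other genes, so a part of its reads can be shared.

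Hist1h2bc stands head to head with Hist1h2ac, an H2A gene 250 bases away on the opposite strand, and the pair share the sequence between them. Hist1h2ac had 0.435, 0.376 and 0.279 FPKM in Tet1-deficient libraries, against 0.342, 0.330 and 0.329 FPKM in wild-type libraries. The mean of Hist1h2bc over the 6 libraries was 59.0 times that of Hist1h2ac. The RefSeq promoter window of Hist1h2ac (250 bases before to 50 after its start, GRCm38.p6) spans the interval and is shown for that reason, beside that of Hist3h2a, which faces the pseudogene Hist3h2bb-ps at a distance of 172 bases. Capitals mark the TATA box TATAAA, the CCAAT box and the octamer ATTTGCAT on either strand.
Hist1h2ac (chr13:23683910-23684209, minus strand): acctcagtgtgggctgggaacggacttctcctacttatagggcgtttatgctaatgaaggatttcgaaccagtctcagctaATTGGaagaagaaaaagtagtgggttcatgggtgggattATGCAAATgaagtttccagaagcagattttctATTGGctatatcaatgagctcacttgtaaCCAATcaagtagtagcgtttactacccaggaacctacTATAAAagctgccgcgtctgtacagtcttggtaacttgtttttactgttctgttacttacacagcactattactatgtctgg
Hist3h2a (chr11:58954435-58954734, plus strand): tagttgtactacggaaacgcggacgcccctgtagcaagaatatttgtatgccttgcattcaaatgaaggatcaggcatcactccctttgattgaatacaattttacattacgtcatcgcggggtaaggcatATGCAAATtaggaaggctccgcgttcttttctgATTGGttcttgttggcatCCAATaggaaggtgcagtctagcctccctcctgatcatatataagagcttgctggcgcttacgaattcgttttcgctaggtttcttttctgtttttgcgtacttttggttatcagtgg
In the Hist3 pair the imbalance was larger still, with Hist3h2a at 76.9 times the level of Hist3h2bb-ps (0.279 FPKM on average). Of 14 such head-to-head pairs, with starts less than 1000 bases apart, 13 joined an H2A with an H2B gene. Both partners were tested in 1 pair, Hist2h2ac with Hist2h2be (1.93 and 2.66 FPKM on average), 1 partner in 3 pairs and neither in 10.

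Promoters of 61 members matched RefSeq entries, with no entry used for Hist1h2bc. The CCAAT box was present in every window of classes H1 (6), H2A (17), H2B (16) and H3 (10), but in 3 of 12 H4 windows, against 37.4% of all 32851 promoters. TATAAA was in 57.4% of the 61, against 13.6% of all promoters. The octamer ATTTGCAT, known from H2B promoters, was in 7 of 17 H2A and 6 of 16 H2B windows and in 0 of the 28 others, against 1.74% of all promoters. Hist1h2be has 2 windows in RefSeq, of which the first listed was counted; the second holds the octamer. The letters TTTGGCGC, a form of the E2F site, were in 0 of the 61 and in 0.514% of all. Another form, TTTCGCGC, was not counted, and some windows hold it, among them those of Hist1h2ad and Hist1h2ag. The 0 is thus not a lack of E2F letters in general. H2A and H2B windows of a pair overlap, so they are not separate cases. These are matches of letters on either strand, not sites.

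Linker histone genes were led by Hist1h1c, which encodes H1.2, a linker subtype found in most cells. It lies at 23738808 to 23740367 on chromosome 13 (plus strand). Hist1h1c had 10.3, 12.3 and 15 FPKM in Tet1-deficient libraries, against 8.73, 8.44 and 10.7 FPKM in wild-type libraries. Wild-type replicate 3 lay above Tet1-deficient replicate 1, so the groups overlapped by that library alone. The means were 12.5 ± 2.40 FPKM in Tet1-deficient and 9.31 ± 1.26 FPKM in wild-type hippocampus (SD, n = 3 each), a ratio of 1.35. The log2 difference was 0.38 (SE 0.156, interval 0.02 to 0.75). Its unadjusted limma p was 0.0434 and its Benjamini-Hochberg adjusted p 1.00, so it did not pass the threshold of 0.05. It was 0.47 in the 4 libraries that lie together (unadjusted limma p 0.0194) and between 0.25 and 0.51 with any 1 library left out. With estimated library weights its unadjusted limma p was 0.000386 and its adjusted p 0.0722.

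The other H1 genes were lower. Hist1h1e, encoding H1.4, had 1.95, 1.87 and 2.17 FPKM in Tet1-deficient libraries, against 1.27, 1.74 and 1.98 FPKM in wild-type libraries. The groups overlapped, with wild-type replicate 1 the lowest of the 6. It overlaps Hist1h2be on the same strand, and 32.0% of its 50-base stretches are shared. Hist1h1c averaged 5.96 times Hist1h1e, and the pair made up 97.4% of the class sum. Hist1h1a, Hist1h1b, Hist1h1d and the testis subtype Hist1h1t averaged between 0.0147 and 0.152 FPKM. Hist1h1a had 0, 0.133 and 0.105 FPKM in Tet1-deficient libraries and 0.158, 0.226 and 0.292 FPKM in wild-type libraries, without overlap. It lay under the level for testing and is named because of these values. Hist1h1a and Hist1h4f were the 2 without overlap among the 56 members above 0 in any library. The share without overlap over all genes above 0 was not computed, and over the tested genes, a different set, it was 4.13%.

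In class H2A the gene next in level to Hist3h2a was Hist2h2ac, which had 1.46, 1.92 and 2.99 FPKM in Tet1-deficient libraries and 0.379, 1.81 and 3.04 FPKM in wild-type libraries. Wild-type replicate 1 lay far below the rest. The log2 difference was 0.29 with an interval from −0.63 to 1.21, and without that library it was −0.14. Of the 50-base stretches of Hist2h2ac, 55% also occur in transcripts of other genes. Hist3h2a and Hist2h2ac made up 95.8% of the class sum. The 16 others averaged between 0 and 0.348 FPKM, and 6 of them were listed at 0 throughout, among them the testis gene Hist1h2aa.

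In class H2B, Hist3h2ba and Hist1h2bc made up 80.2% of the sum. Hist2h2bb, next in level, had 6.68, 3.30 and 5.80 FPKM in Tet1-deficient libraries and 2.31, 1.79 and 6.17 FPKM in wild-type libraries. The groups overlapped through wild-type replicate 3, the second highest of the 6. Its log2 difference of 0.59 was the largest of the 14 (interval −0.32 to 1.49, adjusted limma p 1.00), and was 0.27 in the 4 libraries. The annotation places Gm42743 on the same strand and Gm20628 on the opposite strand at Hist2h2bb, and all of its 50-base stretches also occur in other transcripts, so its level is uncertain.

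Hist2h2be, an H2B gene with 2192 annotated bases after its stop codon and 0% of 50-base stretches shared, had 3.23, 2.78 and 2.1 FPKM in Tet1-deficient libraries and 3.46, 2.32 and 2.07 FPKM in wild-type libraries. In both genotypes replicate 1 was highest. The groups overlapped, with a log2 difference of 0.04 (interval −0.38 to 0.47). Hist1h2bg, the last of the tested H2B genes, had 1.10, 1.53 and 1.46 FPKM in Tet1-deficient libraries and 1.12, 0.687 and 1.46 FPKM in wild-type libraries, a log2 difference of 0.19 (interval −0.19 to 0.57). Of its 50-base stretches 49.7% also occur in transcripts of other genes. The testis gene Hist1h2ba was listed at 0 in all libraries.

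Class H3 had the lowest sum. Hist2h3c1 was its tested gene, with 2.25, 1.64 and 1.41 FPKM in Tet1-deficient libraries and 1.92, 1.32 and 1.46 FPKM in wild-type libraries. Replicate 1 was highest in both genotypes, and the log2 difference was 0.11 (interval −0.24 to 0.46). Hist2h3c2 had 0.679, 0.434 and 0.572 FPKM in Tet1-deficient libraries and 0.851, 0.404 and 0.705 FPKM in wild-type libraries. All of the 50-base stretches of Hist2h3c1 and 63.5% of those of Hist2h3c2 also occur in transcripts of other genes, so both levels are uncertain. The annotation has Gm20634 overlapping Hist2h3c1 on the same strand. The pair held 74.6% of the class sum, which was 3.11 ± 0.241 FPKM in Tet1-deficient and 2.99 ± 0.358 FPKM in wild-type hippocampus (SD, n = 3 each).

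Class H4, whose genes encode a highly conserved core histone, was spread over more genes. Hist1h4i had 3.79, 5.89 and 5.51 FPKM in Tet1-deficient libraries and 3.77, 4.61 and 5.36 FPKM in wild-type libraries. Hist1h4k had 4.01, 2.99 and 5.38 FPKM in Tet1-deficient libraries and 2.88, 3.80 and 3.92 FPKM in wild-type libraries. Both overlapped between genotypes, with log2 differences of 0.11 for Hist1h4i (interval −0.30 to 0.52) and of 0.16 for Hist1h4k (interval −0.29 to 0.60). Hist2h4 had 3.71, 2.79 and 2.46 FPKM in Tet1-deficient libraries and 0.920, 2.13 and 2.77 FPKM in wild-type libraries, a log2 difference of 0.48 (interval −0.13 to 1.09). The low value of wild-type replicate 1 weighed on it: the difference was 0.20 without that library and 0.08 in the 4 libraries. Hist1h4h had 2.05, 3.08 and 2.78 FPKM in Tet1-deficient libraries and 1.23, 1.78 and 2.88 FPKM in wild-type libraries, a log2 difference of 0.32 (interval −0.19 to 0.83). The share of 50-base stretches that also occur in transcripts of other genes was 71.5% for Hist1h4k, 45.8% for Hist1h4h, 28.9% for Hist1h4i and 1.01% for Hist2h4. The lone Hist4h4 gene of chromosome 6 had 0.647, 0.269 and 0.313 FPKM in Tet1-deficient libraries and 0.747, 0.217 and 0.393 FPKM in wild-type libraries, again highest in replicate 1 of both genotypes. Hist1h4f, named for its values, had 0.376, 0.373 and 0.961 FPKM in Tet1-deficient libraries and 0.198, 0.317 and 0 FPKM in wild-type libraries, without overlap but under the level for testing.

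**Figure D3:**
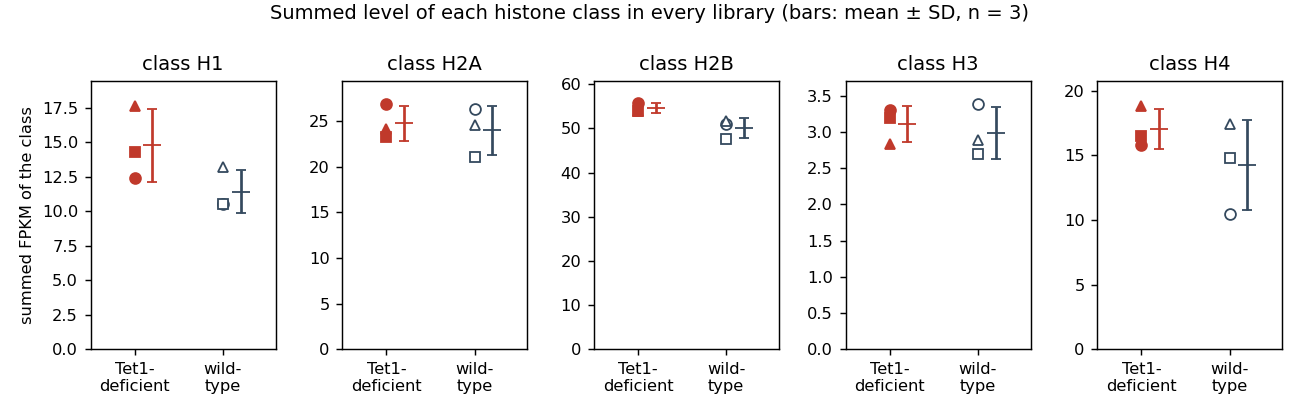
Summed FPKM of each histone class in every library, Tet1-deficient left and wild-type right, with mean ± SD beside the points (n = 3 each); each panel has its own axis from 0. Only class H2B separates the genotypes, at 53.9 to 55.8 FPKM in Tet1-deficient and 47.5 to 51.6 FPKM in wild-type libraries, and class H4 is lowest in wild-type replicate 1.

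Summed by class, the levels were 14.8 ± 2.61 FPKM for H1 in Tet1-deficient and 11.4 ± 1.58 FPKM in wild-type hippocampus (SD, n = 3 each). For H2A the sums were 24.8 ± 1.96 FPKM in Tet1-deficient and 24.0 ± 2.65 FPKM in wild-type libraries. For H4 they were 17.0 ± 1.54 FPKM in Tet1-deficient and 14.2 ± 3.47 FPKM in wild-type libraries. These 3 classes and H3 overlapped between genotypes. The H2B sums did not overlap, at 55.8, 53.9 and 54.0 FPKM in Tet1-deficient libraries against 51.1, 47.5 and 51.6 FPKM in wild-type libraries. Without Hist2h2bb the H2B sums overlapped, at 49.1, 50.6 and 48.2 FPKM in Tet1-deficient libraries against 48.8, 45.7 and 45.4 FPKM in wild-type libraries. The sum of all 68, given above, did not overlap with or without that gene. No test is given for sums over chosen genes. In a bulk sample, fewer cells with a transcript and less of it per cell cannot be told apart.

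Between genotypes 0 of the 14 tested members passed limma's threshold, where 0.0319% of all 12533 tested genes did. At an unadjusted limma p under 0.05 there was 1, Hist1h1c, where 1.36% of all tested genes were. The groups overlapped for all 14, where 4.13% of tested genes did not overlap (1.91% higher and 2.21% lower in Tet1-deficient libraries). Of the 14, 13 were higher in Tet1-deficient hippocampus and 1, Hist3h2ba, was lower, with a median log2 difference of 0.17. Over all tested genes 52.9% were higher and the median was 0.01. The 14 are not separate cases, because near-identical copies share reads and class members share promoter and end elements. In the 4 libraries that lie together 13 were again higher, with a median of 0.09 against 0.0041 over all tested genes. Leaving out Tet1-deficient replicate 1 gave 10 higher and 4 lower. Among all 56 members above 0 in any library 33 were higher (58.9%), where 48.9% of all genes above 0 were.

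**Figure D4:**
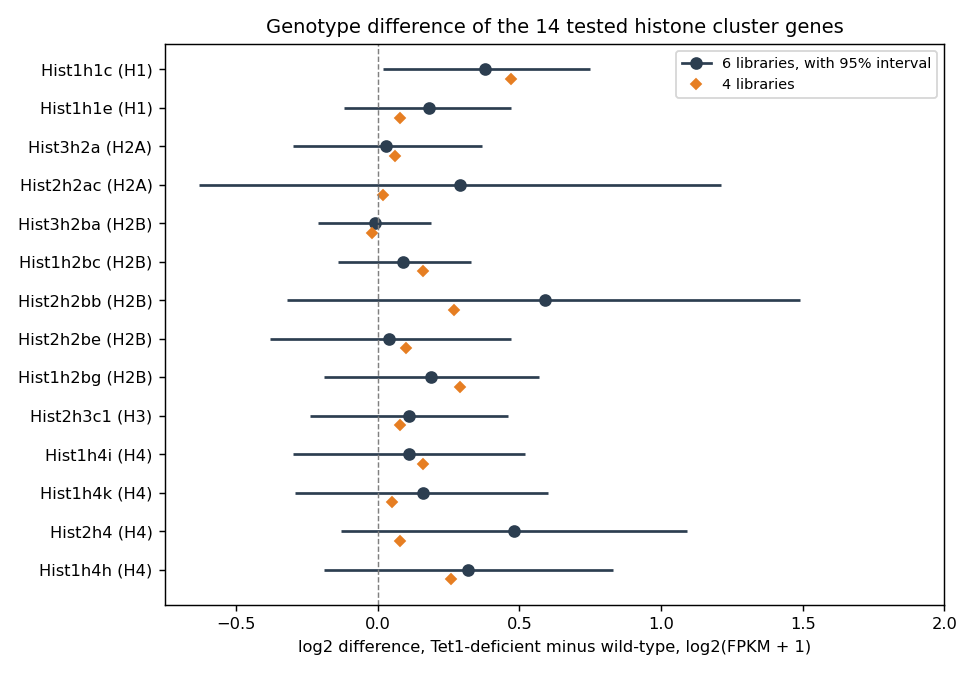
Log2 difference, Tet1-deficient minus wild-type, on the log2(FPKM + 1) scale for the 14 tested genes, ordered as in the plot of their levels; circles and lines are the 6-library values with 95% intervals, diamonds the values in the 4 libraries that lie together. The interval of Hist1h1c alone leaves out 0, and Hist2h2bb and Hist2h2ac have the widest.

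Other transcripts without a standard poly(A) tail are given beside these values because they too depend on library preparation. Of 18 such genes with values, 8 were tested, and of these 5 were higher, 3 lower and 0 passed (median log2 difference 0.02). Malat1, a nuclear RNA with a triple-helix end, had 417, 418 and 386 FPKM in Tet1-deficient libraries and 338, 301 and 356 FPKM in wild-type libraries. Rmrp, the RNA of a ribonuclease, had 24.2, 27.4 and 24.7 FPKM in Tet1-deficient libraries and 15.6, 23.2 and 22.2 FPKM in wild-type libraries. Neither overlapped between genotypes, where 4.13% of all tested genes did not, and neither passed (log2 differences 0.30 and 0.33, adjusted limma p 1.00 each). Neat1, another nuclear RNA, had a log2 difference of 0.0016. Of the 18, 8 small RNA genes were listed at 0 throughout. The part of library preparation in the histone values was not tested.

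Replacement and other histone genes outside the clusters had far higher FPKM. Cluster transcripts without a poly(A) tail can be missed, depending on library preparation, so this gap need not be one of transcript amount. Their 15 genes in the table summed to 642, 543 and 564 FPKM in Tet1-deficient libraries and 575, 536 and 495 FPKM in wild-type libraries. H3f3b and H3f3a, which both encode the replacement histone H3.3, were the most abundant. H3f3b had 199, 134 and 142 FPKM in Tet1-deficient libraries and 183, 127 and 111 FPKM in wild-type libraries. H3f3a had 179, 120 and 121 FPKM in Tet1-deficient libraries, against 159, 118 and 108 FPKM in wild-type libraries. Both genes were highest in replicate 1 of each genotype. Among 11 tested genes of the list 9 were higher, 2 lower and 0 passed, with a median log2 difference of 0.09. H2afv, an H2A.Z gene, was the 1 whose groups did not overlap, at 12.1, 11.3 and 11.8 FPKM in Tet1-deficient libraries and 10.3, 10.5 and 10.4 FPKM in wild-type libraries (adjusted limma p 1.00). Of all tested genes 4.13% did not overlap.

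Genes that make and handle histone mRNA and protein did not pass the test either. Of 24 tested genes of histone mRNA 3′ end processing and turnover 13 were higher and 11 lower (median 0.01). Lsm11, a subunit of the U7 particle that cuts histone transcripts, had 17.2, 13.5 and 12.5 FPKM in Tet1-deficient libraries and 14.2, 11.8 and 10.9 FPKM in wild-type libraries. Ncbp1, of the cap-binding complex, had 29.2, 27.7 and 27.9 FPKM in Tet1-deficient libraries and 25.6, 26.4 and 25.3 FPKM in wild-type libraries, without overlap. Slbp, the stem-loop binding protein gene, named outside the rule, had 9.72, 9.47 and 9.40 FPKM in Tet1-deficient libraries and 10.6, 9.93 and 8.52 FPKM in wild-type libraries. Of 23 tested histone chaperone genes 15 were higher and 8 lower (median 0.04). Nap1l5, of a nucleosome assembly family, was lower without overlap, at 130, 116 and 131 FPKM in Tet1-deficient libraries and 152, 155 and 141 FPKM in wild-type libraries, and Rbbp7, a histone-binding protein gene, higher without overlap, at 111, 118 and 110 FPKM in Tet1-deficient libraries and 95.9, 102 and 94.4 FPKM in wild-type libraries. Neither passed (adjusted limma p 1.00 each). Without overlap were 1 of the 24 processing genes, and 1 higher and 1 lower of the 23 chaperone genes, against 4.13% of all tested genes.

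Markers of dividing cells were low. The 10 genes of proliferating cells summed to 5, 4.85 and 4.50 FPKM in Tet1-deficient libraries and 6.18, 4.47 and 4.68 FPKM in wild-type libraries, and 2 were tested, Ccna2 higher (log2 difference 0.07) and Rrm2 lower (−0.05). Of 22 tested S phase genes 9 were higher and 13 lower, 0 passed, and the median was −0.02. Pcna, the replication clamp, was the most abundant at 49.2, 37.0 and 41.6 FPKM in Tet1-deficient libraries and 41.6, 37.5 and 35.2 FPKM in wild-type libraries. Markers of neighbouring tissue varied more. All 5 meningeal fibroblast markers were lower and 0 passed, with sums of 9.56, 12.5 and 6.76 FPKM in Tet1-deficient libraries and 22.6, 6.62 and 25.7 FPKM in wild-type libraries. The 5 choroid plexus markers ran from 9.18 to 195 FPKM in Tet1-deficient and from 7.29 to 302 FPKM in wild-type libraries, and the 6 red blood cell genes from 4.03 to 12.9 FPKM in Tet1-deficient and from 4.98 to 13.6 FPKM in wild-type libraries. The part of these cells in the histone levels was not tested.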

How the data were processed

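The authors deposited gene-level FPKM values, 1 column per library, for 6 libraries. They used TopHat2 2.0.9, Cufflinks 2.1.1 and build mm10, per the submitters' processing notes; the annotation, strand setting and handling of multi-mapped reads were not stated there or in the labels. Sequences and positions came from GENCODE M21 and RefSeq (GRCm38.p6), which is the mm10 assembly. Genes averaging 1 FPKM or more were tested on log2(FPKM + 1) with limma 3.58.1 in R 4.3.3 (intensity trend, no covariate, two-sided, Benjamini-Hochberg over all 12533 genes, threshold 0.05). The fit was tested on simulated data. Members under that level take their differences from a fit to all genes above 0. The members, gene lists and naming rule were chosen with earlier results of these data known. The rule took the 2 most abundant genes of each class, genes past the threshold, tested genes without overlap, the 3 largest tested differences and 6 set names, and, from each list outside the clusters, up to 3 genes with the smallest unadjusted p and the 3 most abundant, of which not all are reported. The design text counts 3 mice per genotype. Without stated strand, reads of antisense partners cannot be told apart. Alternatives were another pseudocount, filter, scaling and variance model, and fewer libraries. Group names come from the genotype labels.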

Additional observations from a re-analysis of the deposited data

How the results depend on the processing

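No histone cluster gene passed the adjusted limma threshold under any of the alternatives run. No paired analysis was possible because the labels pair no mice and the titles of the genotypes share fewer than 2 numbers. Over all genes 4 passed, against 59 with estimated library weights, 12 in the 4 libraries that lie together, and 0 to 6 with 1 library left out. Of the histone genes, 13 of 14 were higher, against 24 of 34 with a minimum mean of 0.1 FPKM and 33 of 56 with no filter, where more genes enter, and 10 to 14 with 1 library left out. The H1 median of 0.28 was 0.09 and −0.01 under those filters. Differences near 0 changed sign: Hist2h2be (0.04) was −0.03, Hist2h3c2 (−0.08) 0.0023 and Hist3h2ba (−0.01) 0.0019 with library weights, Hist3h2ba 0.01 with median-of-ratios scaling, and Hist4h4 (−0.04) 0.0043 with quantile normalization; the cause was not tested. With 1 library left out they ran from −0.07 to 0.20 for Hist2h2be, −0.19 to 0.01 for Hist2h3c2, −0.04 to 0.03 for Hist3h2ba, −0.16 to 0.10 for Hist4h4, −0.01 to 0.33 for Hist1h4k, −0.14 to 0.64 for Hist2h2ac, −0.01 to 0.20 for Hist2h3c1 and −0.06 to 0.15 for Hist3h2a. Depth is unknown, which limits every value under 1 FPKM.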

Other observations

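The low values of some H4 copies moved in equal steps. In Tet1-deficient replicate 3, Hist1h4b and Hist1h4d both had 0.192 FPKM and Hist1h4a 0.577 FPKM, which is 3 times as much. In wild-type replicate 3, Hist1h4b and Hist1h4j both had 0.230 FPKM, Hist1h4d 0.461 FPKM and Hist1h4a 0.922 FPKM, which are 2 and 4 times as much. Each multiple held within 1%. These libraries and genes were picked after their values were seen, and the number of fragments behind a step is not given.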
